A study of Mus musculus with 12 samples.

Results

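The respiratory chain genes described here are the 78 protein-coding mouse genes whose symbols name subunits of respiratory complexes I to IV or the proteins encoded on mitochondrial DNA. They were taken by symbol (Nduf a, b, c, s and v with digits, *Sdha* to *Sdhd*, Uqcr, *Cox4* to *Cox8*, and the mt-Nd, mt-Co, mt-Cytb and mt-Atp genes, with *Ndufa4l2* left out) and had more than 20 counts summed over all libraries, as did 22592 genes in the whole series. Of 79 protein-coding genes that match the symbols, *Cox8c*, a testis form of a complex IV subunit, had 0 counts and was not tested. Just inside the limit stood *Cox7b2* with 41 counts and *mt-Atp8* with 138. The 78 genes comprise 36 nuclear genes of complex I, 4 of complex II, 8 of complex III, 17 of complex IV and 13 mitochondrially encoded genes. Measured values played no part in the choice beyond the count limit, but the set was drawn up with earlier results of these data known.

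The series measured polyadenylated RNA of hippocampus from 12 mice, 3 in each of 4 groups. WT-Veh were wild-type mice that received vehicle, WT-Nut3 wild-type mice that received Nutlin-3, KO-Veh *Fmr1*-KO mice that received vehicle, and KO-Nut3 *Fmr1*-KO mice that received Nutlin-3. *Fmr1* encodes FMRP, the RNA-binding protein that is lost in fragile X syndrome, and Nutlin-3 blocks the binding of MDM2 to p53. All animals were injected intraperitoneally at 2 months of age and the tissue was collected at 6 months, so the comparisons ask what persisted long after dosing. Per the study the knockout animals were *Fmr1* -/y males, and the disrupted gene is carried by every cell of the body. It calls the wild-type mice of the sequenced tissue controls, and names littermates for other experiments. Each library is named here by its group and its RH number from the labels.

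The respiratory chain passes electrons from NADH through complex I and from succinate through complex II to complex III and on to oxygen at complex IV, and the proton gradient that this builds drives ATP synthase. Mitochondrial DNA encodes a small set of membrane core subunits of complexes I, III and IV and of ATP synthase, while every other subunit is encoded in the nucleus. Neurons depend heavily on this pathway for the ATP that ion pumping and synaptic transmission consume. Nuclear genes of the chain are known targets of the transcription factors NRF1 and NRF2 and of the estrogen-related receptors with their coactivator PGC-1alpha.

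Reads assigned to genes ranged from 17150820 to 20040482 per library. The mitochondrially encoded genes took between 2.65% and 3.26% of these reads, and the 65 nuclear members together between 0.477% and 0.53%. *Fmr1* lay between 74.0 and 79.5 CPM (counts scaled to library size with TMM factors) in the 6 wild-type libraries and between 28.5 and 37.3 CPM in the 6 knockout libraries, so that no library went against its genotype label. Transcripts of *Fmr1* are therefore still counted in the knockouts.

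Some libraries stood apart in their tissue markers. Of 12 choroid plexus epithelium markers, all were tested and none was at 0 over all libraries, though *Kcnj13* was at 0 in WT-Veh RH2 and KO-Veh RH10. The summed level of the 12 was 4789 CPM in WT-Nut3 RH9, 3577 in KO-Nut3 RH6, 5128 in KO-Nut3 RH13 and 387 in KO-Nut3 RH8. In the other 8 libraries the same sum lay between 32.8 and 57.8 CPM. *Ttr*, the thyroid hormone carrier that choroid plexus secretes, was the most abundant of them. KO-Nut3 RH6 also held the highest sum of 8 thalamus markers (316 CPM against 81.0 to 152 elsewhere, led by *Prkcd* over all libraries) and the lowest sum of 6 markers of hippocampal neurons (846 CPM against 1170.2 to 1397, led by *Zbtb20*). Of the thalamus markers, *Slc17a6* (113 CPM against 8.42 to 22.2 elsewhere), *Zic1*, *Tcf7l2*, *Lef1* and *Rgs16* were highest in KO-Nut3 RH6. *Prkcd*, *Plekhg1* and *Synpo2* were not. The 8 meningeal fibroblast markers, led by *Dcn*, were highest in KO-Nut3 RH8 (236 CPM) and WT-Veh RH5 (180 CPM) and lay between 47.8 and 109 CPM elsewhere. The 7 oligodendrocyte markers, led by *Mbp* and none at 0, summed to 3659, 4319 and 5454 CPM in WT-Veh and 5758, 4537 and 6024 in WT-Nut3, against 4957, 4464 and 5153 in KO-Veh and 6252, 5330 and 5251 in KO-Nut3. All 7 had a positive log2 fold change in KO-Nut3 against KO-Veh (median 0.21), WT-Nut3 against WT-Veh (0.26) and KO-Veh against WT-Veh (0.11). Of all genes 50.8%, 50.1% and 48.9% did so in the same order. In edgeR 0 of the 7 markers passed an adjusted *P* of 0.05. For treatment over all libraries 5 of them had an unadjusted *P* under 0.05, with 7.29% of all genes. All 6 hippocampal markers were present in every library. In bulk tissue, fewer cells of a type and less RNA per cell cannot be told apart. What part these tissue differences had in the results below was not tested, except where a value without the library is given.

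The levels of the chain differed far more between genes than between mice. On the scale of mean CPM per kilobase of the principal transcript, which allows genes to be compared, the highest member was *mt-Co1*, the catalytic core of complex IV, at 8105 CPM per kb. *mt-Cytb*, the cytochrome b of complex III, followed at 4120 CPM per kb and *mt-Nd1*, a membrane subunit of complex I, at 3823. The 65 nuclear members had a median of 65.2 CPM per kb with quartiles of 41.4 and 93.2. Within each nuclear complex the highest were *Cox8a* of complex IV at 511 CPM per kb, *Ndufa4* at 211, *Uqcrh* of complex III at 150.3 and *Sdha* of complex II at 135. *Ndufa4* bears a complex I name and is grouped by it here, although its protein is known to belong to complex IV. Polyadenylated RNA was selected and mitochondrial messages carry short tails, so that levels of mitochondrial and nuclear genes are not on a common footing.

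Libraries are always given in the order RH2, RH5, RH15 (WT-Veh), RH1, RH9, RH14 (WT-Nut3), RH7, RH10, RH16 (KO-Veh) and RH6, RH8, RH13 (KO-Nut3). *Cox8a*, a small structural subunit of complex IV, measured 267, 271 and 279.6 CPM in WT-Veh and 263, 309 and 272 in WT-Nut3, against 281, 311 and 294 in KO-Veh and 252, 269.8 and 303 in KO-Nut3. *Sdha*, the flavoprotein that oxidises succinate, measured 404, 398 and 398 CPM in WT-Veh and 404, 368 and 371 in WT-Nut3, against 382, 397 and 384 in KO-Veh and 427, 387 and 375 in KO-Nut3. *Uqcrh*, the hinge protein beside cytochrome c1, measured 72.7, 71.6 and 86.4 CPM in WT-Veh and 73.9, 91.5 and 85.0 in WT-Nut3, against 77.8, 90.7 and 83.7 in KO-Veh and 86.7, 76.9 and 89.7 in KO-Nut3. *Ndufa4* measured 121, 119.7 and 127 CPM in WT-Veh and 118, 142 and 128 in WT-Nut3, against 126, 142 and 128 in KO-Veh and 128, 119 and 144 in KO-Nut3. The ranges of the 4 groups overlapped for these genes, except that *Cox8a* lay higher and *Sdha* lower in all KO-Veh libraries than in all WT-Veh libraries, by a narrow gap.

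The level of the chain was also summed over each complex. The 36 nuclear complex I genes summed to 2045 ± 43.3 CPM in WT-Veh and 2095 ± 94.2 in WT-Nut3, against 2103 ± 81.8 in KO-Veh and 2120.5 ± 95.5 in KO-Nut3 (mean ± SD, n = 3). The highest library exceeded the lowest by a factor of 1.103 for complex I, 1.103 for complex II, 1.14 for complex III, 1.17 for complex IV and 1.29 for the mitochondrially encoded genes. Complex III summed to 719 ± 11.0, 743 ± 39.7, 758 ± 34.3 and 768 ± 41.5 CPM for WT-Veh and WT-Nut3 and then KO-Veh and KO-Nut3. Every KO-Veh library lay above every WT-Veh library for complex III. Complex IV summed to 1515 ± 55.3, 1565 ± 106, 1612 ± 92.1 and 1571 ± 98.9 in the same order, and complex II to 617 ± 3.79, 602 ± 12.1, 605 ± 13.2 and 624 ± 24.2. The sums of complexes III and IV were highest in WT-Nut3 RH9, KO-Veh RH10 and KO-Nut3 RH13, which belong to 3 different groups.

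**Figure D1:**
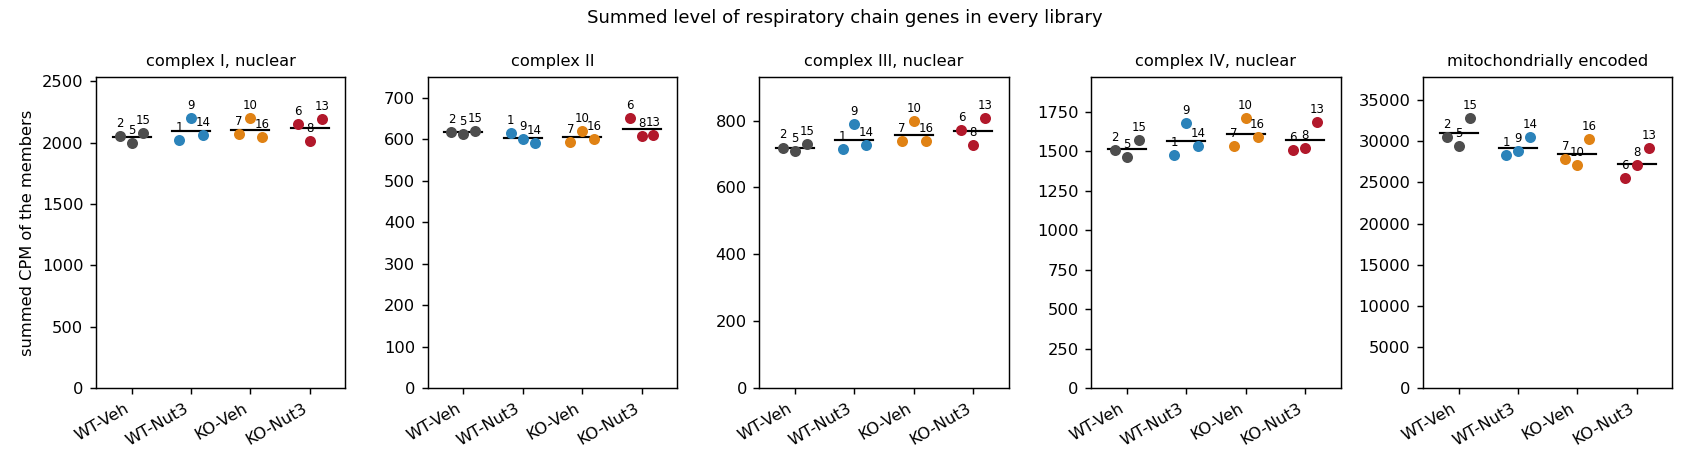
Summed CPM of the members of each complex (vertical axes from 0) in every library, by group; points are single libraries with their RH number and bars are group means. The nuclear sums overlap between groups, except complex III in KO-Veh (738 to 797 CPM) and WT-Veh (708 to 730.4 CPM), while the mitochondrially encoded sum runs from 25517 CPM in KO-Nut3 RH6 to 32842 CPM in WT-Veh RH15.

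These same libraries recur when single genes are ranked. Of the 65 nuclear members, 16 had their highest value in KO-Veh RH10, 15 in WT-Nut3 RH9, 14 in KO-Nut3 RH13 and 12 in KO-Nut3 RH6, whereas 15 had their lowest value in WT-Veh RH5 and 13 in KO-Veh RH16. The within-group SD of log2 CPM (with 0.5 added, pooled over the groups) had a median of 0.095 over nuclear members, beside 0.099 for 7658 other genes between 14.6 and 149.8 CPM. The median SD was 0.067 for the 7 catalytic core subunits of complex I and 0.101 for its 29 accessory subunits, a difference that was not tested. The lowest SD of all members was that of *Uqcrfs1*, the Rieske iron-sulfur protein of complex III (0.034). Outside the minor isoforms of complex IV the most variable nuclear members were *Ndufa11* (0.29) and *Ndufb9* (0.28), both accessory subunits of complex I. *Ndufb9* measured 12.4, 11.7 and 17.3 CPM in WT-Veh and 12.6, 18.4 and 15.9 in WT-Nut3, against 11.7, 17.03 and 16.5 in KO-Veh and 13.7, 11.5 and 16.97 in KO-Nut3. In every group the libraries up to RH8 were low (11.5 to 13.7 CPM) and those from RH9 high (15.9 to 18.4 CPM). *Ndufa11* split the same way, at 11.6 to 12.6 CPM up to RH8 and 13.5 to 19.7 from RH9. So did *Cox7a2* (62.8 to 66.4 CPM against 73.6 to 84.4) and *Cox6b1* (87.6 to 94.0 against 101 to 109). *Cox6c* (136 to 146 CPM against 157 to 175) and *Ndufa3* (35.9 to 39.6 against 42.0 to 52.9) did too. *Sdha* did not, and the members that split this way were not counted. The share of multi-mapped reads, between 3.07% and 3.22% up to RH8 and between 3.33% and 3.55% from RH9, separated the same libraries. The labels give the RH number without saying what it stands for. It is called animal number here, and its term sets libraries up to RH8 against those from RH9, a split that no label gives. Up to RH8 stand RH2 and RH5 of WT-Veh, RH1 of WT-Nut3, RH7 of KO-Veh, and RH6 and RH8 of KO-Nut3. The groups compared in pairs are thus spread unevenly over the split. Those comparisons and the interaction are partly mixed with it. The part of the split in the values was not tested beyond the fits that hold this term.

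The mitochondrially encoded genes fell into a well counted set and a nearly empty one. *mt-Nd1*, *mt-Nd2*, *mt-Co1*, *mt-Nd4*, *mt-Nd5*, *mt-Nd6* and *mt-Cytb* held between 86677 and 2770904 reads each over all libraries. The 6 genes in 1 stretch of mitochondrial DNA from *mt-Co2* to *mt-Nd4l* (chrM:7013-10173, GRCm38) held between 138 and 3527 reads each. That stretch encodes subunits 2 and 3 of cytochrome oxidase, both ATP synthase subunits made in the organelle and the complex I subunits ND3 and ND4L, which are made from the same long precursor as their neighbours. Subunits 1 and 2 of the same enzyme thus stood at 8105 and 23.3 CPM per kb.

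The stretch has a nuclear copy on chromosome 1. Annotated pseudogenes there (*Gm28439*, *Gm10222*, *Gm28438*, *Gm28437*, *Gm10925*, *Gm28661* and *Gm29216*, chr1:24611535-24616197, minus strand) matched the mitochondrial genes almost base for base. *mt-Co2* and *Gm28661* were identical over 681 aligned bases, *mt-Atp6* and *Gm10925* over 678, *mt-Co3* and *Gm28437* over 783 and *mt-Nd4l* and *Gm10222* over 294. *mt-Nd3* and *Gm28438* differed at 1 of 345 bases. The first stretches are shown because they carry the whole difference between copies, in lower case with differing bases in capitals; the *mt-Co2* stretch holds no difference. Sequences are from the GENCODE M21 transcripts, 5′ to 3′ on the gene's strand.
mt-Co2 (chrM:7013-7041, plus strand): atggcctacccattccaacttggtctaca
Gm28661 (chr1:24615537-24615565, minus strand): atggcctacccattccaacttggtctaca
mt-Nd3 (chrM:9459-9487, plus strand): atTaacctgtacactgttatcttcattaa
Gm28438 (chr1:24613091-24613119, minus strand): atCaacctgtacactgttatcttcattaa
mt-Co1 (chrM:6381-6409, plus strand): ggTCtAAcCggaAttgttttatccaactc
Gm29216 (chr1:24616169-24616197, minus strand): ggATtGGcAggaTttgttttatccaactc

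The single difference between *mt-Nd3* and its copy is T3C, counted from the first base of the gene. In *mt-Co1* the 6 differing bases lie at the edge of the copy, which covers 492 aligned bases at the 3′ end of the gene, and *Gm28439* matches 876 bases of *mt-Nd4*. STAR's gene counting places a read that matches several loci equally well in no gene. Of all windows of 100 bases, those found without change in another, non-overlapping annotated gene made up 99.5% of *mt-Co2*, 99.5% of *mt-Atp6*, 99.9% of *mt-Co3*, 97.6% of *mt-Nd3*, 98.5% of *mt-Nd4l*, 60.8% of *mt-Nd4*, 30.8% of *mt-Co1* and 3.19% of *mt-Nd2*. The labels call the reads single and the study's methods call them paired and longer than these windows, so a window does not stand for a read of known length. With windows of 150 bases, tried after the data were seen, the share was 99.4% for *mt-Co2* and *mt-Atp6*, 99.8% for *mt-Co3*, 97.0% for *mt-Nd3*, 98.0% for *mt-Nd4l*, 59.2% for *mt-Nd4*, 23.6% for *mt-Co1* and 0% for *mt-Nd2*. With windows of either length the share was 0% for *mt-Nd1*, *mt-Nd5*, *mt-Nd6* and *mt-Cytb*. It was also 0% for *mt-Atp8*, and this gene too was nearly empty. Only annotated transcripts were searched. *mt-Atp8* begins between *mt-Co2* and *mt-Atp6*. The annotation lists no counterpart of it between their copies *Gm10925* (to chr1:24614651) and *Gm28661* (from chr1:24614885). The bases between those copies were not searched, so the 0% does not show that *mt-Atp8* lacks a copy there. The 7 pseudogenes themselves received 13234 reads over all libraries, from 171 on *Gm10222* to 4008 on *Gm28661*. Counts of the 6 genes are therefore uncertain, and no difference between groups is read from them. For *mt-Nd4* and *mt-Co1*, which stay among the well counted genes, reads that lie wholly in such windows can be left uncounted. Their CPM per kb were still taken over the full length. *mt-Co2* measured 17.3, 12.8 and 17.9 CPM in WT-Veh and 16.1, 16.8 and 15.7 in WT-Nut3, against 13.6, 17.2 and 15.3 in KO-Veh and 19.4, 12.5 and 16.9 in KO-Nut3. *mt-Co3* measured 11.5, 9.56 and 13.3 CPM in WT-Veh and 11.1, 12.1 and 14.2 in WT-Nut3, against 11.9, 12.7 and 14.6 in KO-Veh and 16.6, 11.9 and 12.6 in KO-Nut3. The groups overlapped for both cytochrome oxidase subunits. *mt-Atp6* measured 8.72, 6.72 and 9.84 CPM in WT-Veh and 6.29, 10.03 and 8.47 in WT-Nut3, against 8.47, 10.1 and 9.51 in KO-Veh and 11.9, 6.99 and 9.501 in KO-Nut3. *mt-Nd3* measured 2.33, 2.21 and 3.09 CPM in WT-Veh and 1.88, 2.14 and 3.36 in WT-Nut3, against 1.86, 3.10 and 2.62 in KO-Veh and 2.44, 2.58 and 2.86 in KO-Nut3. All groups overlapped for these genes too. *mt-Atp8* measured 0.78, 0.37 and 0.52 CPM in WT-Veh and 0.66, 0.45 and 0.62 in WT-Nut3, against 0.98, 0.51 and 0.51 in KO-Veh and 0.72, 0.80 and 0.60 in KO-Nut3. *mt-Nd4l* measured 0.78, 0.53 and 0.62 CPM in WT-Veh and 0.96, 0.75 and 0.95 in WT-Nut3, against 0.52, 0.79 and 0.74 in KO-Veh and 0.998, 0.74 and 1.04 in KO-Nut3. These levels rest on 138 and 173 reads over all libraries.

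**Figure D2:**
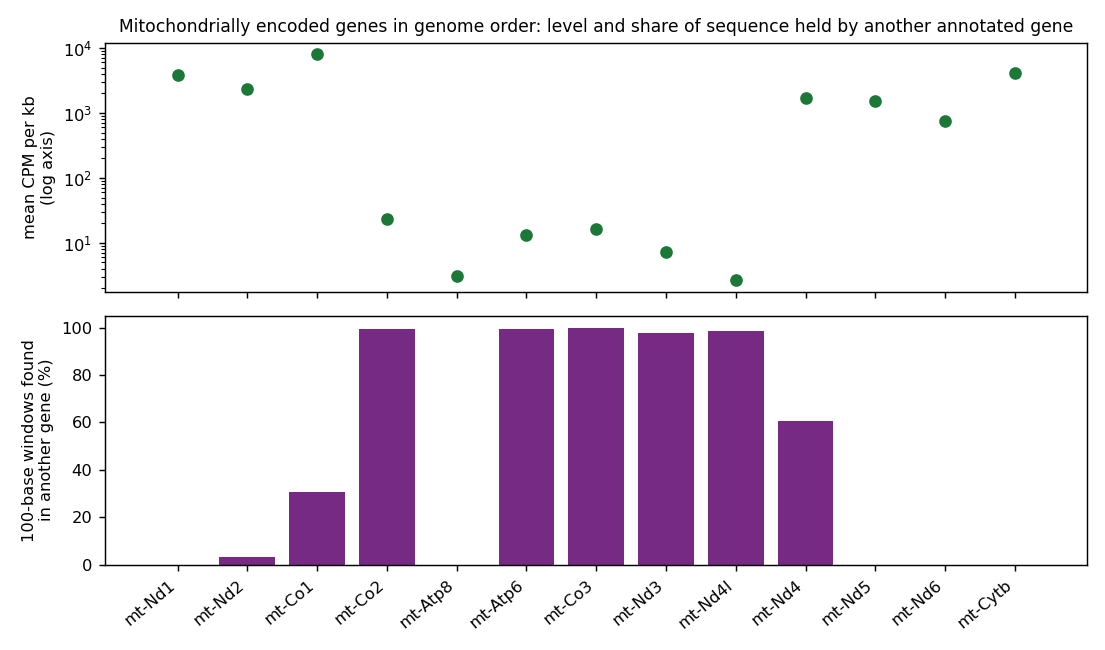
The 13 mitochondrially encoded genes in genome order: mean level over 12 libraries in CPM per kb (upper panel, log axis) and percent of 100-base windows that occur unchanged in another annotated gene (lower panel). The 6 genes from mt-Co2 to mt-Nd4l lie between 2.64 and 23.3 CPM per kb and all other genes at or above 755 CPM per kb. No annotated gene holds the windows of mt-Atp8, which is low too, but unannotated bases between the nuclear copies were not searched.

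Among nuclear members, 55 of 65 had no such window. The shares were 44.4% for *Cox7c*, 33.4% for *Ndufb4*, 19.9% for *Ndufs3*, 19.8% for *Ndufs5*, 17.7% for *Ndufa12*, 15.8% for *Uqcrb* and 11.7% for *Cox7a2l*, and lower in *Cox5b*, *Cox6c* and *Cox6a1*. Reads that lie wholly in such windows can be left uncounted.

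In complex IV, 5 pairs of genes that encode alternative forms of a subunit were compared, and in each the form known from most tissues dominated. On the scale of CPM per kb, *Cox4i1* stood 177-fold above *Cox4i2*, a form induced in lung and by low oxygen. *Cox6a1* stood 115-fold above the heart and muscle form *Cox6a2*, *Cox7a2* 48.3-fold above the muscle form *Cox7a1* and *Cox8a* 220.5-fold above *Cox8b*, which is typical of muscle and brown fat. *Cox6b1* exceeded the testis form *Cox6b2* by 40.2-fold. Single libraries ranged from 108 to 311 for *Cox4i1* over *Cox4i2*, 88.8 to 205 for *Cox6a1* over *Cox6a2*, 22.4 to 273 for *Cox7a2* over *Cox7a1* and 19.4 to 71.4 for *Cox6b1* over *Cox6b2*. For *Cox8a* over *Cox8b* they ranged from 55.1 to 2928 in the 10 libraries in which *Cox8b* was above 0. The minor forms made up between 0.452% and 2.43% of these 5 pairs. A further pair, *Cox7b* and its testis paralog *Cox7b2*, stood at 76.1 and 0.34 CPM per kb, the second on 41 reads in all. The 5 muscle markers summed to between 6.79 and 11.8 CPM, led by *Acta1*. *Cox4i1* measured 206, 202 and 217 CPM in WT-Veh and 200.4, 226 and 210.5 in WT-Nut3, against 199.9, 219 and 213 in KO-Veh and 218, 207 and 225 in KO-Nut3. *Cox6a1* measured 278, 263 and 265 CPM in WT-Veh and 279, 291 and 267 in WT-Nut3, against 293, 312 and 271 in KO-Veh and 257, 299 and 295 in KO-Nut3. Both are abundant and the ranges of the groups overlapped. *Cox6b1* measured 93.3, 87.6 and 103 CPM in WT-Veh and 90.1, 103 and 101 in WT-Nut3, against 94.0, 109 and 103 in KO-Veh and 89.6, 92.1 and 106 in KO-Nut3. *Cox7a2* measured 66.4, 64.2 and 80.4 CPM in WT-Veh and 65.2, 82.0 and 73.6 in WT-Nut3, against 64.4, 76.9 and 78.1 in KO-Veh and 63.3, 62.8 and 84.4 in KO-Nut3. Here too the ranges of the groups overlapped, but both genes were lower in every library up to RH8 than in every library from RH9.

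The question of what Nutlin-3 left behind in the knockout was put by KO-Nut3 against KO-Veh. No member passed an adjusted *P* of 0.05 in edgeR's quasi-likelihood test with Benjamini-Hochberg adjustment over 22592 genes, where 45 genes (0.199%) did. At an unadjusted *P* under 0.05 stood 2 of 78 members, against 7.6% of all genes tested. The median log2 fold change was 0.01 for the nuclear members and 0.00340 for all genes. In this comparison 0 of 6 hippocampal neuron markers were higher (median log2 fold change -0.18), with 8 of 8 thalamus markers (0.65) and 7 of 8 meningeal fibroblast markers (1.37). In edgeR 0 of these markers passed an adjusted *P* of 0.05, and their part in the values of members was not tested. Of the 7 well counted mitochondrial genes 6 were lower in KO-Nut3, with a median of -0.06. Single libraries moved that median both ways. It was -0.0077 with 5 lower without KO-Nut3 RH6 and -0.02 with 4 lower without KO-Veh RH16, but -0.12 without KO-Nut3 RH13 and -0.09 without KO-Veh RH10. With animal number (up to RH8 against from RH9) as a term in the edgeR fit it was -0.02. Higher in KO-Nut3 were 38 of 65 nuclear members (58.5%, with 50.8% of all genes), all 4 of complex II, 5 of 8 of complex III, 8 of 17 of complex IV and 21 of 36 of complex I. Within complex I these were all 7 catalytic subunits, whose log2 fold changes reached at most 0.06, and 14 of 29 accessory ones. The split turns with a scaling. When trends with GC content and gene length were removed from each library, 20 of 65 were higher, with 41.2% of all genes. With animal number as a term 51 of 65 were higher. It was 53 of 65 when KO-Veh RH10 was left out, 52 when KO-Nut3 RH8 was, and 31 when KO-Veh RH7 was.

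The 2 members with the smallest *P* were minor forms of complex IV. *Cox8b* (chr7:140898945-140900446, minus strand) measured 0.10, 0 and 0 CPM in KO-Veh RH7, RH10 and RH16 and 2.99, 0.29 and 2.91 in KO-Nut3 RH6, RH8 and RH13. In wild-type mice it measured 0.06, 0.21 and 0.10 CPM with vehicle and 0.10, 3.08 and 0.17 with Nutlin-3, in the order RH2, RH5, RH15 and RH1, RH9, RH14. It was thus at or above 2.91 CPM in 3 libraries and at or below 0.29 in the other 9. Those 3 libraries held 62, 54 and 53 of its 188 reads, and without them it would not have passed the limit of 20 counts, so its tests describe a gene that was let in by the libraries where it is high. The reads behind these values were 112 in KO-Nut3 and 2 in KO-Veh, a depth-scaled ratio of 58.2 with an exact 95% interval for counting error of 15.7 to 487. The fitted log2 fold change of 5.58 (SE 1.11) leans on the prior count, and its adjusted *P* in edgeR's quasi-likelihood test with Benjamini-Hochberg adjustment was 0.112. DESeq2 called it, with an adjusted *P* of 4.77e-04, among 245 genes (1.08%). Leaving out KO-Nut3 RH8 lowered its edgeR adjusted *P* to 0.00132, and that of *Cox6b2* to 0.0459. Without that library edgeR called 266 of 22592 genes, against 45 in the main fit.

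*Cox6b2* (chr7:4751792-4753094, minus strand) measured 1.60, 2.03 and 1.37 CPM in KO-Veh and 4.38, 1.43 and 4.01 in KO-Nut3, with 1.49, 1.63 and 1.96 in WT-Veh and 1.83, 4.32 and 1.57 in WT-Nut3. The groups overlapped through KO-Nut3 RH8. Its log2 fold change was 0.97 (SE 0.39, edgeR's quasi-likelihood test with Benjamini-Hochberg adjustment, adjusted *P* = 0.592). The 3 libraries with high *Cox8b* and *Cox6b2* are the 3 with the most *Ttr* (4215 in WT-Nut3 RH9, 3091 in KO-Nut3 RH6 and 4519.7 CPM in KO-Nut3 RH13), against 313.5 in KO-Nut3 RH8 and 3.15 to 18.2 in the rest. *Cox7a1* was highest in the same libraries, at 2.19, 1.22 and 1.59 CPM against 0.17 to 1.07 elsewhere. All 12 choroid plexus markers had a higher mean in KO-Nut3 libraries than KO-Veh libraries, 5 of them past edgeR's adjusted *P* of 0.05. Of the 5 muscle markers, 3 of which had a mean under 1 CPM, 4 were higher in the same comparison (median log2 fold change 0.83), with 50.8% of all genes. *Tnnt3* stood at 5.27 (SE 1.26) and *Acta1* at -0.43 (SE 0.18), and 0 of the 5 passed edgeR's adjusted *P* of 0.05. The part of choroid plexus or muscle RNA in these values was not tested.

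**Figure D3:**
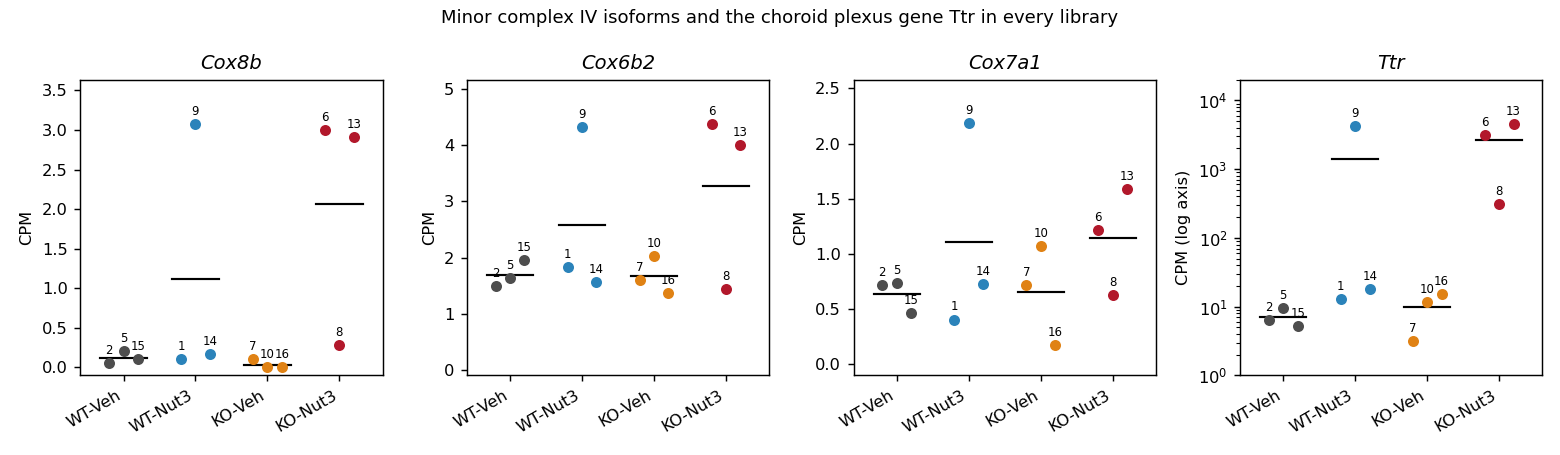
CPM of Cox8b, Cox6b2 and Cox7a1 (linear axes) and of the choroid plexus gene Ttr (log axis) in every library; points carry the RH number and bars are group means. WT-Nut3 RH9, KO-Nut3 RH6 and KO-Nut3 RH13 are the 3 highest libraries in all 4 panels, and KO-Nut3 RH8 has 313.5 CPM of Ttr with 0.29 CPM of Cox8b.

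The lowest *P* among members lower in KO-Nut3 belonged to *Cox6a2* and *Ndufb3*. *Cox6a2* measured 3.30, 3.44 and 3.08 CPM in KO-Veh and 1.497, 2.23 and 3.24 in KO-Nut3, a log2 fold change of -0.50 (SE 0.28, adjusted *P* = 0.734 by edgeR's quasi-likelihood test with Benjamini-Hochberg adjustment). It was -0.26 without KO-Nut3 RH6 and -0.81 without KO-Nut3 RH13. *Ndufb3*, an accessory complex I subunit, measured 40.2, 47.4 and 45.1 CPM in KO-Veh and 37.5, 40.2 and 42.4 in KO-Nut3, a change of -0.15 (SE 0.09, adjusted *P* = 0.741 in the same edgeR fit) that was -0.09 without KO-Veh RH10 or with animal number as a term. Both pairs of groups overlapped. For 67 of 78 members the 95% interval of the log2 fold change lay inside ±0.5, and the other 11 were 6 minor or low forms of complex IV, *Ndufb9*, *Ndufa11*, *mt-Atp8*, *mt-Nd3* and *mt-Nd4l*.

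The effect of the genotype without drug was measured by KO-Veh against WT-Veh. Again 0 of 78 members passed edgeR's adjusted *P* of 0.05, with 4 of 22592 genes called (0.0177%), and 5 of 78 had an unadjusted *P* under 0.05, against 7.2% of all genes (*mt-Nd6*, *mt-Nd5*, *mt-Nd1*, *Ndufa2* and *Uqcr11*). Nuclear and mitochondrial members leaned in opposite directions. Of 65 nuclear members 50 were higher in KO-Veh (76.9%, with 48.9% of all genes), with a median log2 fold change of 0.05, and this held for 28 of 36 in complex I, 8 of 8 in complex III and 12 of 17 in complex IV but for 2 of 4 in complex II. Without KO-Veh RH10 it was 40 of 65 nuclear members with a median of 0.02, and with animal number as a term 43 of 65. KO-Veh and WT-Veh are unevenly spread over the split by animal number. The median was 0.10 without KO-Veh RH16 and 0.09 without WT-Veh RH15. All 7 well counted mitochondrial genes were lower in KO-Veh, with log2 fold changes between -0.29 and -0.09 and a median of -0.12. Without WT-Veh RH15 all 7 were still lower, but the median was -0.05 and the weakest value -0.01. Genes of the organelle are cut from long shared precursors, so the 7 are not independent of one another.

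**Figure D4:**
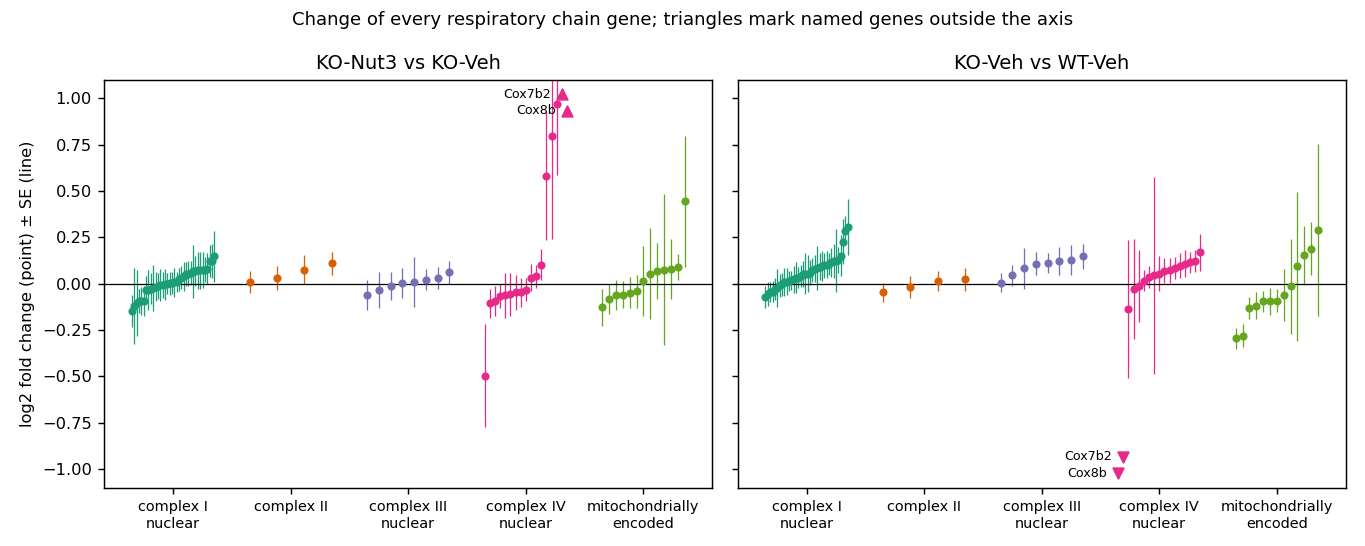
Log2 fold change (points) with its standard error (lines) of all 78 members in KO-Nut3 vs KO-Veh (left) and KO-Veh vs WT-Veh (right), grouped by complex and ordered by size. Cox8b and Cox7b2, with 188 and 41 reads in all, lie outside the axis and are marked by triangles without a value; the 2 lowest mitochondrially encoded genes on the right are mt-Nd6 and mt-Nd5 at -0.29 and -0.28.

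*mt-Nd6* (chrM:13552-14070) encodes a complex I subunit and is the only protein gene on the opposite strand of mitochondrial DNA. It measured 452, 416 and 443 CPM in WT-Veh and 358, 340.0 and 371 in KO-Veh. All 3 knockout libraries lay below all 3 wild-type libraries. The log2 fold change was -0.29 (95% interval -0.42 to -0.17) at an adjusted *P* of 0.303 in edgeR's quasi-likelihood test with Benjamini-Hochberg adjustment. With Nutlin-3 the values were 391, 391 and 397 CPM in WT-Nut3 and 379, 353 and 409 in KO-Nut3, which overlapped each other and lay between the vehicle groups except for KO-Nut3 RH8.

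*mt-Nd5* (chrM:11742-13565), the largest mitochondrially encoded subunit of complex I, measured 3303, 3072 and 3249 CPM in WT-Veh and 2677, 2432 and 2819 in KO-Veh, again without overlap. Its log2 fold change was -0.28 (95% interval -0.41 to -0.15; edgeR's quasi-likelihood test with Benjamini-Hochberg adjustment, adjusted *P* = 0.420). The Nutlin-3 groups measured 2995, 2671 and 2926 CPM in wild type and 2354, 2525 and 2851 in the knockout. *mt-Nd5* and *mt-Nd6* share 14 bases on opposite strands, and the libraries did not keep the strand, with between 50.1% and 50.4% of strand-assigned reads on the first strand. Reads of *mt-Nd6* and of antisense RNA from the other strand's precursor therefore cannot be told apart. DESeq2 called both genes, with adjusted *P* of 0.00234 for *mt-Nd6* and 0.0127 for *mt-Nd5*, among 22 genes in all (0.0974%).

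**Figure D5:**
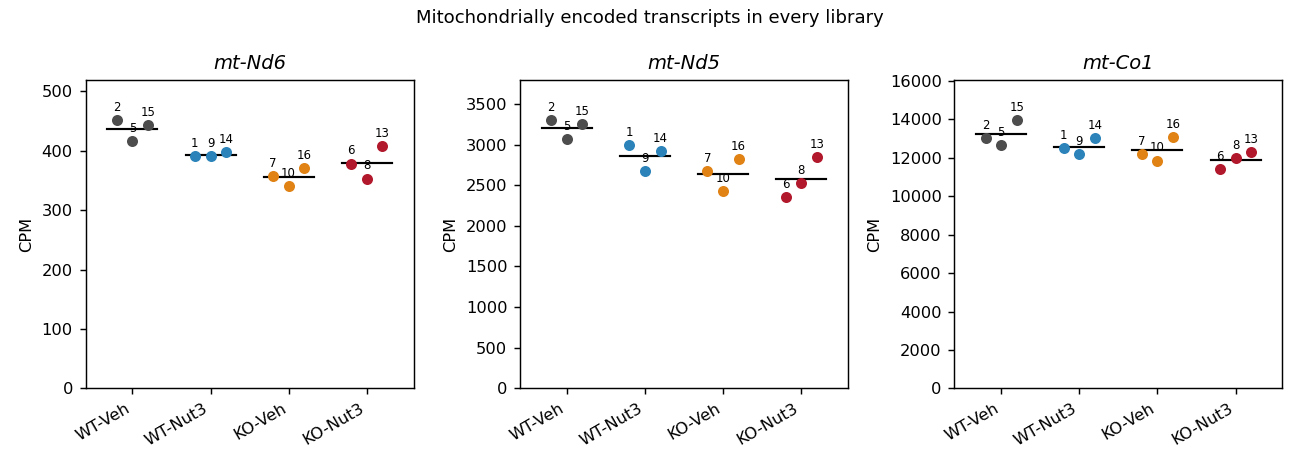
CPM of mt-Nd6, mt-Nd5 and, for comparison, mt-Co1 in every library, with axes from 0; points carry the RH number and bars are group means. For mt-Nd6 and mt-Nd5 the KO-Veh libraries all lie below the WT-Veh libraries, while mt-Co1 runs from 11862 to 13091 CPM in KO-Veh and from 12682 to 13973 CPM in WT-Veh, which overlap.

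For the other well counted mitochondrial genes the ranges of KO-Veh and WT-Veh overlapped. *mt-Nd1* measured 3812, 3713 and 4135 CPM in WT-Veh and 3564, 3885 and 3917 in WT-Nut3, against 3464, 3428 and 3755 in KO-Veh and 3167, 3356 and 3710.3 in KO-Nut3. *mt-Nd2* measured 2478, 2396 and 2853 CPM in WT-Veh and 2291, 2504 and 2641 in WT-Nut3, against 2281, 2261 and 2571 in KO-Veh and 2145, 2229 and 2513 in KO-Nut3. *mt-Nd4* measured 2504, 2345 and 2803 CPM in WT-Veh and 2231, 2344 and 2601 in WT-Nut3, against 2286, 2279 and 2602 in KO-Veh and 1915, 2176 and 2483 in KO-Nut3. All are membrane subunits of complex I. *mt-Co1* measured 13032, 12682 and 13973 CPM in WT-Veh and 12499, 12193 and 13012 in WT-Nut3, against 12204, 11862 and 13091 in KO-Veh and 11414, 11998 and 12307 in KO-Nut3. *mt-Cytb* measured 4936, 4771 and 5340.3 CPM in WT-Veh and 4321, 4727 and 4979.6 in WT-Nut3, against 4559, 4502 and 5063 in KO-Veh and 4090.2, 4469 and 4804 in KO-Nut3. The first is the catalytic core of complex IV and the second the cytochrome b of complex III.

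*Ndufa2* and *Uqcr11* had the smallest *P* among members higher in KO-Veh. *Ndufa2*, an accessory complex I subunit with a thioredoxin-like fold, measured 32.4, 31.4 and 36.9 CPM in WT-Veh and 40.1, 42.9 and 39.9 in KO-Veh, without overlap (log2 fold change 0.29, SE 0.08; edgeR's quasi-likelihood test with Benjamini-Hochberg adjustment, adjusted *P* = 0.598). It was also near 40 CPM in both Nutlin-3 groups, at 37.0, 45.1 and 38.7 in WT-Nut3 and 39.3, 37.2 and 44.3 in KO-Nut3, so WT-Veh was the group that lay low. *Uqcr11*, a small subunit of complex III, measured 54.7, 58.6 and 62.5 CPM in WT-Veh and 63.3, 68.0 and 63.5 in KO-Veh, again without overlap (0.15, SE 0.07, adjusted *P* = 0.681 in the same edgeR fit).

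Over all 12 libraries with treatment as a term, the genotype comparison gave 0 of 78 members and 1 of 22592 genes (0.00443%) past edgeR's adjusted *P* of 0.05. At an unadjusted *P* under 0.05 stood 5 members (*mt-Nd5*, *mt-Nd6*, *mt-Nd1*, *Uqcrfs1* and *Cox5a*), against 8.16% of genes. These libraries include those of the comparison above, so the fit is not separate evidence. The 7 well counted mitochondrial genes were all lower in the knockout, with a median log2 fold change of -0.12, and all 7 were lower too in KO-Nut3 against WT-Nut3, which share no library with the vehicle groups, with a median of -0.12 and no value beyond -0.16. There the median was -0.18 without KO-Nut3 RH13, -0.05 without KO-Nut3 RH6, and -0.07 both without WT-Nut3 RH14 and with animal number as a term, with all 7 lower in each. In KO-Nut3 against WT-Nut3 0 of 6 hippocampal neuron markers were higher (median log2 fold change -0.18), with 7 of 8 thalamus markers (0.63), 8 of 8 meningeal fibroblast markers (1.49) and 51.1% of all genes. The part of these tissue differences was not tested. The 7 well counted mitochondrial genes were also lower with Nutlin-3, in WT-Nut3 against WT-Veh with a median of -0.09 and for treatment over all libraries with a median of -0.07 (6 of 7 with GC and length trends removed). In WT-Nut3 against WT-Veh 5 of 7 were lower without WT-Veh RH15 (median -0.03) and likewise without WT-Nut3 RH1 (-0.04). The median was -0.15 with animal number as a term and without WT-Nut3 RH14, and -0.13 without WT-Veh RH5. These comparisons share libraries with those of genotype. *mt-Nd5* was lower by a log2 fold change of -0.22 (SE 0.06, adjusted *P* = 0.417) and *mt-Nd6* by -0.17 (SE 0.05, adjusted *P* = 0.436, both by edgeR's quasi-likelihood test with Benjamini-Hochberg adjustment). Their ranges over the 6 wild-type and 6 knockout libraries overlapped. DESeq2 called *mt-Nd5* here at an adjusted *P* of 0.0402 among 43 genes (0.19%).

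On the nuclear side 52 of 65 members were higher in the knockout over all libraries, with 51.9% of all genes, and the median log2 fold change was 0.04. That median was 0.02 without WT-Nut3 RH1 and with GC and length trends removed, 0.03 without KO-Veh RH10 or KO-Nut3 RH13, and 0.07 without WT-Nut3 RH9. *Uqcrfs1* measured between 97.3 and 104.6 CPM in the 6 wild-type libraries and between 102.7 and 110.2 in the 6 knockout libraries, with log2 fold change 0.09 (SE 0.03, adjusted *P* = 0.468 in edgeR's quasi-likelihood test with Benjamini-Hochberg adjustment). *Cox5a*, a subunit on the matrix side of complex IV, measured 40.4, 40.2 and 40.2 CPM in WT-Veh and 39.97, 43.1 and 37.7 in WT-Nut3, against 44.0, 43.1 and 39.7 in KO-Veh and 49.7, 44.2 and 42.5 in KO-Nut3, with log2 fold change 0.12 (SE 0.05, adjusted *P* = 0.559 in the same edgeR fit).

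The remaining comparisons called 0 of 78 members as well. In WT-Nut3 against WT-Veh edgeR called 0 genes at an adjusted *P* of 0.05 (0%), as did DESeq2 and limma-voom. With animal number as a term edgeR called 11 genes (0.0487%), all lower in WT-Nut3, and 0 members. The main edgeR fit placed 5 members at an unadjusted *P* under 0.05, with 3.17% of all genes. These were *Ndufa2* (log2 fold change 0.26, SE 0.09), *Ndufa11* (0.36, SE 0.16) and *Cox8b*, higher in WT-Nut3, and *mt-Nd6* (-0.15, SE 0.06) and *mt-Nd5* (-0.16, SE 0.07), lower in it. *Cox8b* held 62 reads in WT-Nut3 RH9 but 2 in RH1 and 3 in RH14, and it passed the count limit through the libraries where it is high. *Ndufa11* is also a gene whose level split between libraries up to RH8 and those from RH9. With animal number as a term 1 member higher and 4 lower in WT-Nut3 stood at that *P*, with 2.61% of all genes. *Ndufa2*, *mt-Nd6* and *mt-Nd5* are also among the members below that *P* in KO-Veh against WT-Veh, which shares the WT-Veh libraries. Of the nuclear members 52 of 65 were higher in WT-Nut3, but without WT-Nut3 RH9 this became 29 of 65, with 49.0% of all genes, and with animal number as a term 42 of 65. In KO-Nut3 against WT-Nut3 edgeR called 1 gene (0.00443%) and DESeq2 7, and 1 member, *Cox4i2*, stood at an unadjusted *P* under 0.05, with 4.87% of all genes. *Cox4i2* measured 0.81, 0.70 and 0.67 CPM in WT-Nut3 and 1.94, 1.146 and 1.76 in KO-Nut3, without overlap, but also 0.72, 1.26 and 1.55 in WT-Veh and 1.19, 1.35 and 0.68 in KO-Veh. Of the nuclear members 46 of 65 were higher in KO-Nut3 than in WT-Nut3, but 28 with GC and length trends removed, with 44.1% of all genes, and 57 with animal number as a term. It was 32 without WT-Nut3 RH1 and 31 without KO-Nut3 RH13.

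For treatment over all libraries edgeR called 0 genes (0%) and 5 members had an unadjusted *P* under 0.05, with 7.29% of all genes. These were *Cox8b*, *Cox6b2*, *Ndufs7* and *Ndufb7* (higher with Nutlin-3) and *Cox6a2* (lower). Of the nuclear members 49 of 65 were higher with Nutlin-3, but 27 with GC and length trends removed, with 41.8% of all genes, and 36 without WT-Nut3 RH9. limma-voom called 0 genes. DESeq2 called *Cox8b* at an adjusted *P* of 0.0352 among 79 genes (0.35%), a gene with at most 4 reads in any vehicle library that passed the count limit through the Nutlin-3 libraries where it is high. The test of the difference between the 2 treatment effects, the interaction of genotype and treatment, called 0 genes in edgeR (0%) and in limma-voom and 1 in DESeq2, and 3 members (*mt-Nd6*, *Cox4i2* and *Ndufa2*) had an unadjusted *P* under 0.05, with 4.17% of all genes. The median interaction of the nuclear members was -0.03 on the log2 scale, and 0.04 with animal number as a term. Single libraries moved it both ways. It was -0.08 without WT-Nut3 RH1 and -0.07 without WT-Veh RH15, but 0.02 without WT-Nut3 RH9 and 0.01 without KO-Veh RH10. For *mt-Nd6* the interaction was 0.25 on the log2 scale (95% interval 0.06 to 0.43; edgeR's quasi-likelihood test with Benjamini-Hochberg adjustment, adjusted *P* = 0.994), the treated animals being lower than vehicle in wild type and not in the knockout. For *Ndufa2* it was -0.29 (95% interval -0.56 to -0.01) in the same edgeR fit.

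Lists of genes that work beside the chain were counted in the same way, naming the gene with the smallest *P* in each direction in KO-Nut3 against KO-Veh. Of 17 ATP synthase genes tested, which make the enzyme that spends the proton gradient, 0 passed edgeR's adjusted *P* of 0.05 in any of the 7 comparisons, and at most 3 had an unadjusted *P* under 0.05 (for genotype over all libraries, with 8.16% of all genes). In KO-Nut3 against KO-Veh the smallest *P* belonged to *Atp5g3* (log2 fold change 0.11, SE 0.06), a proton-carrying ring subunit, and to *Atp5g2*, its paralog, at -0.11 (SE 0.08). Their median log2 fold change in KO-Veh against WT-Veh was 0.06, with 16 of 17 higher, beside 48.9% of all genes. Assembly factors, which build and insert cofactors into the complexes, gave 0 of 41 in all 7 comparisons. At most 1 had an unadjusted *P* under 0.05 in edgeR (for genotype, for treatment and in both comparisons with WT-Veh). Of all genes, 8.16% lay below it for genotype, 7.29% for treatment, 7.2% in KO-Veh against WT-Veh and 3.17% in WT-Nut3 against WT-Veh. *Sdhaf3* stood at 0.21 (SE 0.14) and *Ndufaf7* at -0.14 (SE 0.07). Of 25 genes that regulate or carry out mitochondrial gene expression, 0 were called by edgeR and at most 3 had an unadjusted *P* under 0.05 (in KO-Veh against WT-Veh, with 7.2% of all genes), with *Lrpprc*, which stabilises mitochondrial mRNAs, at 0.12 (SE 0.06) and *Ssbp1* at -0.08 (SE 0.10) in KO-Nut3 against KO-Veh. Of 77 mitochondrial ribosome genes 0 were called by edgeR and at most 4 had an unadjusted *P* under 0.05 (for treatment, with 7.29% of all genes), with *Mrpl58* at 0.22 (SE 0.10) and *Mrpl16* at -0.17 (SE 0.11) in the same comparison.

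Some sequence features were shared by the members without having been used to choose them. Principal transcripts of the 65 nuclear members had a median length of 763 bases. Over all their exons the median length was 1291 bases with 51.0% GC, beside 4291 bases and 49.9% GC for 16113 other protein-coding genes tested, and the mitochondrial genes had 37.1% GC. Of the 65 nuclear members, 53 matched RefSeq promoter windows (GRCm38.p6, 250 bases before to 50 after the start site). The NRF1 motif GCGCANGCG, searched on both strands, was present in 13 of 53 (24.5%), against 7.03% of all 27025 genes with a window and 12.9% of the other protein-coding genes tested here. The YY1 motif AAGATGGCG was present in 5 of 53 (9.43%), against 1.64% of all genes and 2.89% of the other protein-coding genes tested, and in all 5 it began between 22 and 35 bases after the start site. The ERR motif TCAAGGTCA was present in 1, *Sdhd* (1.89%, against 0.466% of all genes and 0.321% of the other protein-coding genes tested). A match is a description of the sequence and shows no binding.

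NRF1 matches were spread over 8 of 32 complex I, 2 of 3 complex II, 2 of 5 complex III and 1 of 13 complex IV promoters. Stretches from named members of complexes II, III and IV are shown with the motif, or its reverse complement, in capitals.
Sdha (chr13:74350320-74350348, minus strand): cgtttacaggGCGCAGGCGcaccaccact
Uqcr11 (chr10:80406808-80406836, minus strand): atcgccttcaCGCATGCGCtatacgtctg
Cox6a1 (chr5:115349057-115349085, minus strand): cggataaagtGCGCAGGCGctggagttcc

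The match shown begins 98 bases before the start site in *Sdha*, which holds 2 more, 117 before it in *Cox6a1*, which also holds others, and 5 before it in *Uqcr11*. The genes stood at 135, 492 and 138 CPM per kb.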

How the data were processed

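Polyadenylated RNA of 12 hippocampi was sequenced, and the authors aligned reads to mm10 with STAR, whose version and annotation are not given in the sources used here. The deposited files hold raw read counts per gene, from which the count that ignores strand was used. Genes with more than 20 counts over all libraries were tested with edgeR 4.0.16 (TMM, quasi-likelihood, Benjamini-Hochberg over all genes), pairs of groups on their own 6 libraries and main effects and the interaction on all 12. The labels name no batch, and nothing in them beyond separate RH numbers says how the libraries were prepared. CPM are TMM-scaled. Alternatives were DESeq2 1.42.0, limma-voom (limma 3.58.1), other scalings and filters, a term for animal number, removal of GC and length trends, and leaving out each library. Scripts were tested on simulated data. Lengths, copies and coordinates come from GENCODE M21 (GRCm38). Genes were named by a rule: the 2 smallest *P* in each direction for genotype and for both comparisons that involve KO-Veh, all mitochondrial genes, the highest gene of each complex and 5 isoform pairs. Other genes (*Ndufb9* and *Ndufa11* for their spread, *Cox6c* and *Ndufa3* for their split by RH number, *Cox7b*, *Cox7b2*, and members below an unadjusted *P* of 0.05 elsewhere) were chosen after their values were seen. Members and lists were chosen with earlier results of these data known. Intervals on reads cover counting error only.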

Additional observations from a re-analysis of the deposited data

How the results depend on the processing

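The number of members called was 0 in every comparison of the main analysis and differed under 3 kinds of alternative. DESeq2 called 1 member in KO-Nut3 against KO-Veh (*Cox8b*), 2 in KO-Veh against WT-Veh (*mt-Nd5* and *mt-Nd6*), 1 for genotype (*mt-Nd5*) and 1 for treatment (*Cox8b*). Testing every gene with at least 1 count called 1, 2, 1 and 2 members in the same comparisons. It also called 1 member (*Cox8b*) in WT-Nut3 against WT-Veh, a gene that was high in WT-Nut3 RH9 alone of these libraries. Of the 35930 genes tested in this way, 544, 272, 239 and 539 were called in the same order, and 249 in WT-Nut3 against WT-Veh. Leaving out single libraries gave between 0 and 2 members in KO-Nut3 against KO-Veh, the 2 being *Cox8b* and *Cox6b2* without KO-Nut3 RH8. That fit called 266 of 22592 genes, against 45 in the main fit. In the other comparisons leaving out single libraries gave 0 members. The cause was not tested. Of the counts of members under alternatives, 110 were unchanged and 10 moved, and none of 12 fold changes of the genes chosen by smallest *P* changed sign. Over the alternatives, genes called ranged from 0 to 544 in KO-Nut3 against KO-Veh, 1 to 272 in KO-Veh against WT-Veh, 0 to 249 in WT-Nut3 against WT-Veh, 0 to 38 in KO-Nut3 against WT-Nut3, 0 to 291 for the interaction, 1 to 239 for genotype and 0 to 539 for treatment. All 7 well counted mitochondrial genes were lower in the knockout under all 15 alternatives in KO-Veh against WT-Veh and in KO-Nut3 against WT-Nut3, with medians between -0.17 and -0.05 and between -0.18 and -0.05. In WT-Nut3 against WT-Veh they were all lower under 13 of 15, with medians between -0.15 and -0.03, and in KO-Nut3 against KO-Veh between 4 and 6 were lower, with medians between -0.12 and -0.0077. No paired analysis was possible because the groups share no replicate numbers. In KO-Nut3 against KO-Veh the 95% interval of the log2 fold change reached beyond ±0.5 for 11 of 78 members.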
